A study of Mus musculus with 4 samples.

Results

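The RNA of 10 genes for protein folding in the endoplasmic reticulum (ER) was followed in the epidermis of mice labelled as knockouts of the ER calcium sensors STIM1 and STIM2 and of floxed controls. The 10 genes were the rows of the deposited count table named Hspa5, Hsp90b1, Calr, Canx, Pdia3, Pdia4, Pdia6, Xbp1, Atf4 and Herpud1, out of 56493 genes listed, and each name occurred once. The first 7 encode chaperones or disulfide isomerases and are described apart from the other 3, which are factors induced or activated by ER stress. RNA came from the epidermal layer of dorsal skin, as 3' end libraries. The knockout group (cKO, 2 libraries) came from mice in which a Cre recombinase under the keratin 14 promoter (K14-Cre) is meant to delete Stim1 and Stim2. The control group (2 libraries) came from Stim1/2fl/fl mice, which carry the same floxed alleles and for which the labels name no Cre. K14-Cre acts in keratin 14 epithelium, so that Langerhans cells, T cells and melanocytes of the epidermal sheet are not targeted. The design text speaks of keratinocytes and the sample labels of epidermis. Age, sex and strain are not given in the sources used here. The labels do not say whether the libraries of a group are separate animals, so p-values measure only the spread between these libraries.

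Proteins that enter the ER are folded there by chaperones, in a compartment rich in calcium. HSPA5 (BiP) and HSP90B1 (GRP94) bind unfolded chains, calreticulin (Calr) and calnexin (Canx) hold chains by their sugar side chains, and the PDIA enzymes form and exchange disulfide bonds. Several of these proteins bind calcium, and calreticulin is a main calcium buffer of the store whose level STIM1 and STIM2 sense. When unfolded chains accumulate, the sensors IRE1, PERK and ATF6 start the unfolded-protein response: IRE1 splices the Xbp1 message, PERK favours translation of Atf4, and ATF6 enters the nucleus as a transcription factor. ATF6 and spliced XBP1 act on chaperone genes through the ER stress response element (ERSE). Counts from the 3' end show neither the splicing of Xbp1 nor the translation of Atf4.

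The promoters were examined first, since the ERSE is what many of these genes are known to share. RefSeq promoter windows (GRCm38.p6, 250 bases before to 50 after the annotated start) were found for all 10 genes, with 1 window each. Searched on both strands as CCAAT and CCACG with any 9 bases between them, the ERSE was present in 5 of the 10 windows and in 0.119% of the 32851 windows of all genes. The 5 genes were Hspa5, Hsp90b1, Calr, Canx and Pdia6, and Hsp90b1 held 2 copies. A shorter variant, ERSE-II (ATTGG and CCACG with 1 base between them), was present in the window of Herpud1 and in 0.0365% of all windows. The elements are shown on the strand of the gene with 16 bases on each side, and capitals mark the element.
Hspa5, chr2:34772009-34772059, plus strand: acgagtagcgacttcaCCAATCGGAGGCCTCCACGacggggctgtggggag
Hsp90b1 distal, chr10:86705622-86705672, minus strand: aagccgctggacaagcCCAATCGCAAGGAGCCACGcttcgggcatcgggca
Hsp90b1 proximal, chr10:86705517-86705567, minus strand: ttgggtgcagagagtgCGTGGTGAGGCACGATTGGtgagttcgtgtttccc
Calr, chr8:84847059-84847109, minus strand: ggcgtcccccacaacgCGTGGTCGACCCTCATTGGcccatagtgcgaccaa
Canx, chr11:50325784-50325834, minus strand: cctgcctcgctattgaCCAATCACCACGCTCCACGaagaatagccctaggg
Pdia6, chr12:17266475-17266525, plus strand: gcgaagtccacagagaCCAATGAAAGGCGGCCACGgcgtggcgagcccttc
Herpud1 (ERSE-II), chr8:94386361-94386403, plus strand: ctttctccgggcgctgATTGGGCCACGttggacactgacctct
In Calr and in the proximal copy of Hsp90b1 the element lay in the reverse orientation, so that its CCAAT end reads ATTGG. Counted from the start, with -1 as the base before it, the elements began at positions from -212 (Hsp90b1, distal) to -52 (Herpud1). Herpud1 also held a C/EBP-ATF site (TGATGCAA, on the reverse strand, positions -112 to -105), a motif present in 0.895% of all windows and known as a binding site of ATF4 with C/EBP factors. The ATF6 and XBP1 motif TGACGTGG (0.676% of all windows) was in none of the 10. No ERSE or ERSE-II in this form was found in the windows of Pdia3, Pdia4, Xbp1 and Atf4, which says only that these letters are not there. The motif overlaps the CCAAT box by its first 5 bases, and a CCAAT in either orientation was present in 9 of the 10 windows and in 37.4% of all windows.

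The libraries were shallow, with totals from 118858 counts in cKO replicate 2 to 322426 in control replicate 2. The limit for a gene with no count (3 counts) was 8.43 to 28.9 CPM, the normalised count scaled to library size that is used here for all levels. Stim1 had counts of 23 and 6 in cKO against 24 and 62 in control, and its cKO mean was 48.8% of the control mean (log2 fold change -0.99, edgeR adjusted p 0.673). Stim2 had counts of 0 and 1 in cKO against 3 and 18 in control. Both cKO values lay below both control values in each gene, but Stim1 was still counted in both cKO libraries and did not pass the test. The deleted exons are not given in the sources used here, so 3' counts do not check the deletion itself. All 5 basal keratinocyte markers were counted in every library, with a summed level of 3977 to 7199 CPM in cKO and 2434 to 2765 CPM in control. Much of this difference lay in Krt14, with counts of 1077 and 267 in cKO against 174 and 271 in control. Trp63, another of the markers, overlapped between groups, with counts of 106 and 11 in cKO against 51 and 93 in control. Suprabasal keratinocyte markers also overlapped, with sums of 13773 and 9022 CPM in cKO and 6703 and 14048 CPM in control. Skeletal muscle markers (6 of 6 counted in control) summed to 14.4 to 57.8 CPM in cKO and 779 to 1119 CPM in control, with Myh4, Pvalb and Tnnt3 at 0 in both cKO libraries. Hair shaft and inner root sheath markers summed to 269.6 to 363 CPM in cKO and 1129.9 to 1229 CPM in control, nearly all of it Tchh, with Krt27 and Krt31 at 0 throughout. Sebaceous gland markers summed to 608 to 1502 CPM in cKO and 447 to 508 CPM in control, with none of the 5 at 0 throughout. By CPM, Scd1 and Elovl3 were higher in both cKO libraries, while Mgst1, Awat1 and Mc5r overlapped between groups. Mgst1 had counts of 8 and 36 in cKO against 34 and 25 in control, and Awat1 12 and 22 against 16 and 18. Of the 4 markers of plasma cells, a cell type rich in ER, Jchain, Mzb1 and Derl3 were at 0 in every library. Fibroblast markers summed to 32.4 and 520.0 CPM in the cKO libraries and 142 and 89.9 CPM in control, with Pdgfra at 0. Nuclear copies of mitochondrial genes took 24.0% of cKO replicate 2 and 8.28% to 14.2% of the other libraries. The part of these differences in the values below was not tested. In such bulk samples fewer cells of a type and less RNA per cell cannot be told apart.

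None of the 10 genes passed the test between cKO and control. Of the 10, 9 passed the count filter, and 0 of these 9 had an adjusted p under 0.05 (edgeR quasi-likelihood test, Benjamini-Hochberg over 4243 genes), where 0.848% of all tested genes did (0.66% higher and 0.189% lower in cKO). DESeq2 and limma-voom also called 0 of them. At an unadjusted p under 0.05 there was 1 member, Calr, beside 8.39% of all tested genes. Both cKO values lay above both control values in 4 of the 9 genes (Hsp90b1, Calr, Pdia3 and Herpud1), where this held for 18.6% of all tested genes. Both cKO values lay below both control values in 0 of the 9, where this held for 20.1% of tested genes; 38.7% of tested genes did not overlap in either direction. The test of a single value over 2 against 2 libraries cannot go below an exact permutation p of 0.333. The plot of levels by library shows the raw count behind each value.

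**Figure D1:**
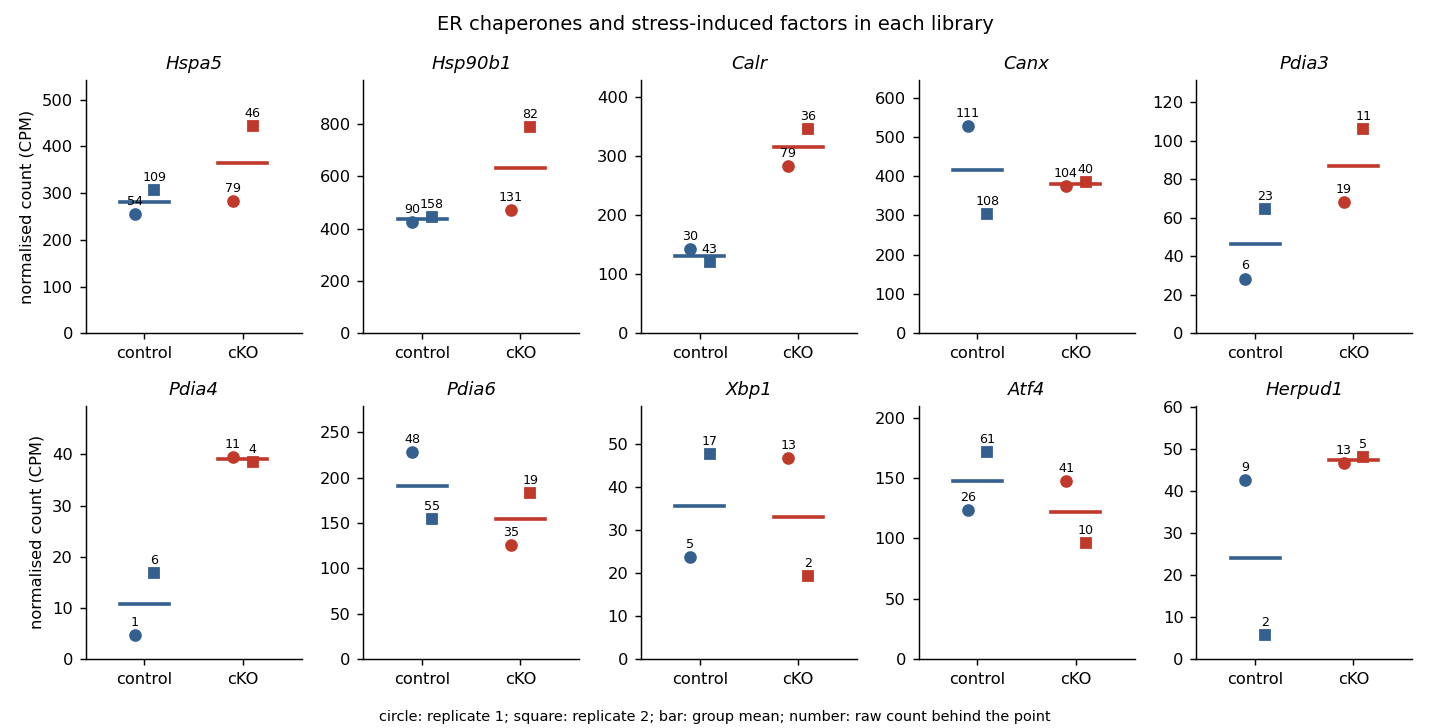
Normalised counts (CPM, linear axis from 0) of the 10 genes in the 2 control (blue) and 2 cKO (red) libraries, with circles for replicate 1, squares for replicate 2, a bar for the group mean and the raw count beside each point. Calr is the gene whose 4 points form a low and a high pair with counts of at least 30, while Pdia4 and Herpud1 rest on 1 to 13 counts a library.

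The general chaperones Hspa5 and Hsp90b1 had somewhat higher means in cKO, within the error of the fit. Hspa5 (ENSMUSG00000026864, chr2:34661982-34667559, plus strand), which encodes the ER member of the HSP70 family and keeps the stress sensors inactive when bound to them, had counts of 79 and 46 in cKO against 54 and 109 in control. The normalised values were 284 and 443 CPM in cKO and 256 and 306 CPM in control. The groups overlapped, with cKO replicate 1 between the control libraries. The log2 fold change of Hspa5 was 0.34 ± 0.44 (SE; edgeR adjusted p 0.956), and its 95% interval ran from -0.60 to 1.28. Hsp90b1 (ENSMUSG00000020048, chr10:86526073-86541373, minus strand), the ER member of the HSP90 family, had counts of 131 and 82 in cKO against 90 and 158 in control. These were 471 and 789.6 CPM in cKO and 427 and 444 CPM in control. The groups did not overlap, but cKO replicate 1 lay close to control and only cKO replicate 2 stood well above it. The estimate for Hsp90b1 was a log2 fold change of 0.52 ± 0.43 (SE; edgeR adjusted p 0.877). Without cKO replicate 2 the estimates for Hspa5 and Hsp90b1 were 0.01 and 0.11. Exons of Hsp90b1 share 415 bases with the antisense gene 1810014B01Rik, which had at most 1 count in any library. They also share 133 bases with Gm54730 (2 to 7 counts a library) and 84 bases with Gm15344 (1 to 11 counts a library), genes of the same strand, and how the counting treated reads there is not given in the sources used here.

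Of the lectin chaperones, Calr had the higher mean in cKO and Canx overlapped between groups. Calr (ENSMUSG00000003814, chr8:85568479-85573563, minus strand), the soluble calcium-binding lectin, had counts of 79 and 36 in cKO against 30 and 43 in control. The normalised values were 284 and 347 CPM in cKO and 142 and 121 CPM in control, or 315 ± 44.2 CPM (SD, n = 2) and 132 ± 15.2 CPM (SD, n = 2). The lower cKO value was 1.996 times the higher control value. The ratio of the group means was 2.40. On the log2 scale the difference for Calr was 1.25 ± 0.44 (SE), with a 95% interval of 0.31 to 2.20 (edgeR unadjusted p 0.0133, adjusted p 0.371). Its adjusted p over the 13 alternative analyses ran from 0.243 to 0.999, and the log2 fold change from 1.04 to 1.40. Calr thus ranked 151 of 4243 tested genes by p and remained short of the threshold. Canx (ENSMUSG00000020368, chr11:50184788-50216500, minus strand), the membrane-bound lectin that binds the same sugar chains, had counts of 104 and 40 in cKO against 111 and 108 in control. Its values were 374 and 385 CPM in cKO and 527 and 304 CPM in control. The cKO libraries lay between the control libraries. The log2 fold change of Canx was -0.12 ± 0.44 (SE; edgeR adjusted p 0.992), and it became 0.33 without control replicate 1.

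The promoter of Calr is given because Calr stood nearest to the threshold. The 250 bases before its RefSeq start (GRCm38.p6, chr8:84846932-84847181, minus strand) read as follows, with the ERSE in capitals.
Calr promoter: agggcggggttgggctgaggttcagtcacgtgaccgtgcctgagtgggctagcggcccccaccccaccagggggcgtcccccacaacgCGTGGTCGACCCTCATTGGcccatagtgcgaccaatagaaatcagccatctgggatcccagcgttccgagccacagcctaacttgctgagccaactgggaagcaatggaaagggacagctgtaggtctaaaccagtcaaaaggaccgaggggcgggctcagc
The 5 genes with an ERSE had log2 fold changes of 0.34 (Hspa5), 0.52 (Hsp90b1), 1.25 (Calr), -0.12 (Canx) and -0.33 (Pdia6). The presence of the element thus went with values on both sides of 0.

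**Figure D2:**
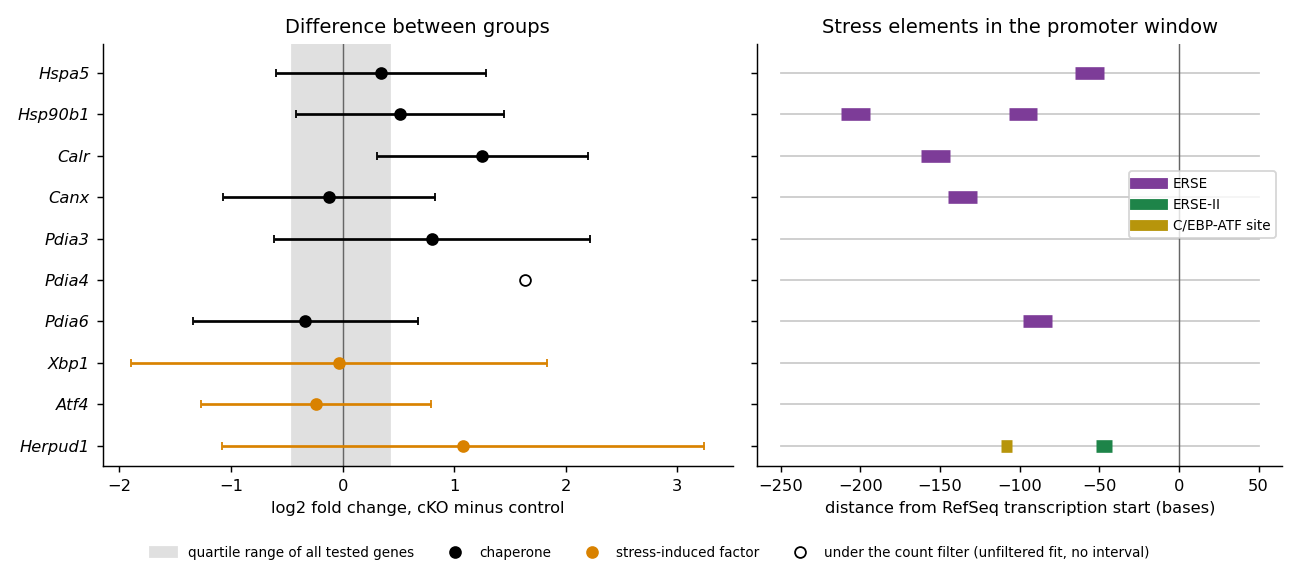
Left, log2 fold changes (cKO minus control) with 95% intervals from edgeR for the 9 tested genes and an open circle for Pdia4, against the quartile range of all tested genes (grey). Right, position of the ERSE, ERSE-II and C/EBP-ATF motif in each RefSeq promoter window, in bases from the start; the interval of Calr is the one that lies above 0, and the 5 genes with an ERSE have estimates from -0.33 to 1.25.

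Within each library the 2 lectins can be compared without any scaling between libraries, a comparison chosen after their values were seen. Calr made up 43.2% (79 of 183 counts, 95% Wilson interval 36.2% to 50.4%) and 47.4% (36 of 76, 36.5% to 58.4%) of the Calr and Canx counts in cKO. In control it made up 21.3% (30 of 141, 15.3% to 28.7%) and 28.5% (43 of 151, 21.9% to 36.1%). The cKO shares lay above both control shares, and the 4 intervals, which cover counting error only, did not overlap between groups. Calr and Canx are 1 of the 45 pairs that the 10 genes form, and the ratio of counts did not overlap between groups in 21 of the 45. A separated ratio is thus not particular to these lectins. The Wilson intervals did not overlap between groups in 1 pair of the 45, which is Calr and Canx, the pair chosen after its values were seen. The margin was narrow, with a lower limit of 36.2% in cKO replicate 1 against an upper limit of 36.1% in control replicate 2. As a share of the counts of all 10 genes, Calr had 15.05% and 14.1% in cKO and 7.89% and 7.39% in control. These ratios depend on both genes, and the share does not tell a higher Calr from a lower Canx.

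Of the disulfide isomerases, Pdia3 and Pdia4 had higher values in both cKO libraries and Pdia6 overlapped between groups, with none past the threshold. Pdia3 (ENSMUSG00000027248, chr2:121244256-121269168, plus strand), which encodes ERp57, the isomerase that works with calreticulin and calnexin, had counts of 19 and 11 in cKO against 6 and 23 in control. These were 68.3 and 106 CPM in cKO and 28.5 and 64.6 CPM in control. The groups did not overlap, but the lower cKO value was only 1.06 times the higher control value. Pdia3 had a log2 fold change of 0.80 ± 0.66 (SE; edgeR adjusted p 0.875), which moved to 0.40 when control replicate 1 was left out and to 1.59 when control replicate 2 was. Pdia4 (ENSMUSG00000025823, chr6:47773075-47790364, minus strand), which encodes ERp72, had counts of 11 and 4 in cKO against 1 and 6 in control and fell under the count filter. Its values were 39.6 and 38.5 CPM in cKO and 4.74 and 16.9 CPM in control, with no overlap. Fitted with every gene that had a count, Pdia4 had a log2 fold change of 1.64 ± 1.03 (SE; edgeR adjusted p 0.911), so the depth did not allow its change to be sized. Pdia6 (ENSMUSG00000020571, chr12:17316546-17334771, plus strand), which encodes the isomerase P5, had counts of 35 and 19 in cKO against 48 and 55 in control. These were 126 and 183 CPM in cKO and 228 and 155 CPM in control. The groups overlapped, and the log2 fold change was -0.33 ± 0.47 (SE; edgeR adjusted p 0.961). Without control replicate 1 it was -0.02, without cKO replicate 1 -0.05. Exons of Pdia6 share 50 bases with those of Atp6v1c2, a gene of the other strand, and strand use in the counting is not given in the sources used here.

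Of the stress-induced factors, Xbp1 and Atf4 overlapped between groups and Herpud1 rested on few counts. Xbp1 (ENSMUSG00000020484, chr11:5470659-5475893, plus strand), the message spliced by IRE1, had counts of 13 and 2 in cKO against 5 and 17 in control. These were 46.7 and 19.3 CPM in cKO and 23.7 and 47.8 CPM in control. Each group held 1 low and 1 high library, and the log2 fold change was -0.03 ± 0.86 (SE; edgeR adjusted p 0.999). Its 95% interval, from -1.89 to 1.83, leaves room for more than a 3-fold difference in either direction. Atf4 (ENSMUSG00000042406, chr15:80139385-80141742, plus strand), the transcription factor of the PERK branch, had counts of 41 and 10 in cKO against 26 and 61 in control. These were 147 and 96.3 CPM in cKO and 123 and 171 CPM in control. The groups overlapped, with a log2 fold change of -0.24, a standard error of 0.48 and a 95% interval of -1.27 to 0.79 (edgeR adjusted p 0.989). Herpud1 (ENSMUSG00000031770, chr8:95113066-95122005, plus strand), an ER membrane protein of the degradation machinery that is induced by stress, had counts of 13 and 5 in cKO against 9 and 2 in control. The cKO values were 46.7 and 48.1 CPM and the control values 42.7 and 5.62 CPM. The groups did not overlap, but control replicate 1 lay next to both cKO libraries and only control replicate 2, with 2 counts, stood apart. For Herpud1 the log2 fold change was 1.08 ± 1.00 (SE; edgeR adjusted p 0.902). It was 2.97 without control replicate 1 and 2.10 with limma-voom.

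Xbp1, Atf4 and Herpud1 together took shares of the counts of the 10 genes that overlapped between groups. The share was 12.8% (67 of 525 counts, 95% Wilson interval 10.2% to 15.9%) and 6.67% (17 of 255, 4.20% to 10.4%) in cKO. In control it was 10.5% (40 of 380, 7.83% to 14.0%) and 13.7% (80 of 582, 11.2% to 16.8%). The groups overlapped, and cKO replicate 2 had the lowest share. The 7 chaperones summed to 1647 and 2292 CPM in cKO and 1613 and 1411 CPM in control. The summed level of cKO replicate 1 was close to that of control replicate 1, and cKO replicate 2 was the library above the rest. The median log2 fold change was 0.43 over the 6 tested chaperones and -0.03 over the 3 stress-induced factors, beside -0.01 over all tested genes. Without cKO replicate 2 the chaperone median was 0.11, and with library totals as the only scaling, which moved the median of all tested genes to -0.21, it was 0.20.

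**Figure D3:**
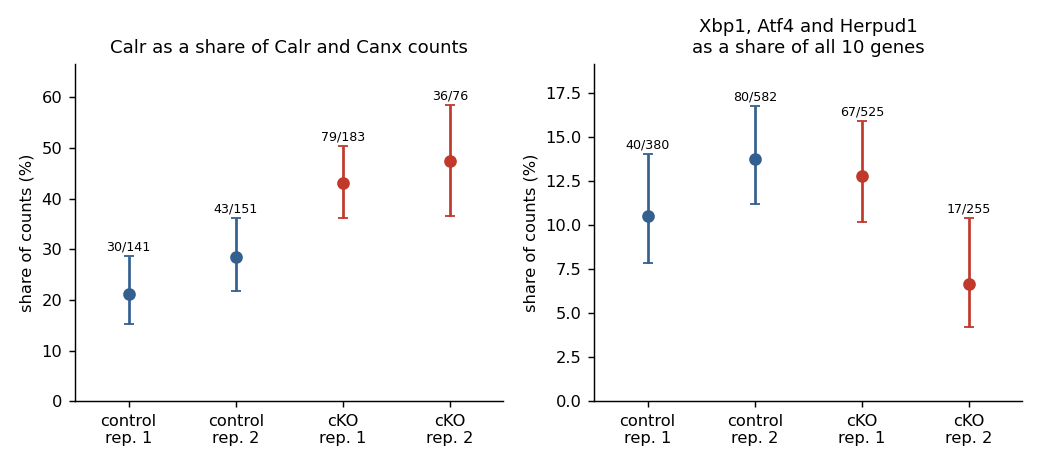
Shares of counts within each library (percent, axis from 0) with 95% Wilson intervals and the counts behind them, in control (blue) and cKO (red). On the left, Calr takes 43.2% and 47.4% of the Calr and Canx counts in cKO and 21.3% and 28.5% in control; on the right, the share of Xbp1, Atf4 and Herpud1 overlaps between groups.

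The rest of the ER folding pathway was examined through gene lists, in which 0 genes passed the test in either direction. Among other ER folding factors, 13 of 46 genes passed the count filter, 6 with a positive and 7 with a negative estimate, and the median log2 fold change was -0.04. The members with the largest absolute values were Manf, Ppib and P4hb. Manf, a secreted ER-stress-inducible protein that binds HSPA5, had counts of 23 and 14 in cKO against 5 and 15 in control (82.7 and 135 CPM against 23.7 and 42.2 CPM). Its log2 fold change was 1.62 ± 0.65 (SE; edgeR adjusted p 0.485). Ppib, the ER cyclophilin that isomerises prolines, had counts of 28 and 27 in cKO against 18 and 16 in control, and its log2 fold change was 1.42 ± 0.59 (SE; edgeR adjusted p 0.494). Ppib became 0.67 without cKO replicate 2. P4hb, the first disulfide isomerase of the family, had 44 and 15 counts against 5 and 48, and its log2 fold change of 0.86 (edgeR adjusted p 0.823) became 2.69 without control replicate 2. In all 3 genes both cKO values lay above both control values, as in 4 of the 13 tested genes of the list, where 18.6% of all tested genes did so. In 0 of the 13 did both lie below, beside 20.1% of all tested genes. The 33 genes of the list under the count filter are left out of these numbers.

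Of the stress sensors, stress transcription factors and ATF4 targets, 7 of 34 genes passed the count filter, with a median log2 fold change of 0.27. Atf5, a transcription factor related to ATF4 and induced in the same stress pathway, had counts of 19 and 19 in cKO against 1 and 4 in control. These were 68.3 and 183 CPM in cKO and 4.74 and 11.2 CPM in control, and each cKO value was above each control value. This held for 2 of the 7 tested genes of the list, beside 18.6% of all tested genes. In 0 of the 7 did both cKO values lie below both control values, beside 20.1% of all tested genes. Atf5 passed the count filter only through its cKO libraries, where it was high. The 27 genes of the list under the filter are left out of these numbers. Without a count filter the list median was -0.22, beside -0.15 over all genes fitted. The log2 fold change of Atf5 was 3.71 ± 0.84 (SE; edgeR unadjusted p 0.000684, adjusted p 0.0701), short of the threshold. It passed in 5 of the 13 alternative analyses, which were DESeq2 (adjusted p 0.0479), no count filter (0.00947), a mean of at least 10 CPM (0.0311), and the fits without cKO replicate 1 (0.000463) and without control replicate 2 (0.0305). Its highest adjusted p was 0.597. Cebpb, a C/EBP factor that pairs with ATF4 and has many other inputs, had 115 and 713 CPM in cKO and 247 and 259 CPM in control, so that the cKO libraries enclosed the control libraries (log2 fold change 0.64, edgeR adjusted p 0.905). Eif2ak1, the haem-regulated eIF2α kinase, had 12 and 0 counts against 4 and 20 (log2 fold change -0.53, edgeR adjusted p 0.989).

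Many genes by which the unfolded-protein response is usually read were too scarce to compare, and they are named here after their counts were seen. Ddit3, which encodes CHOP, had 1 and 0 counts in cKO and 2 in each control library. Dnajb9, a target of spliced XBP1, had 1 count in cKO replicate 1 and 0 elsewhere. Hyou1, an ER chaperone of the HSP110 family, had counts of 4 and 0 in cKO against 0 and 2 in control. Genes of the sensors IRE1 (Ern1) and PERK (Eif2ak3) had at most 3 and 1 counts in any library, while Atf6 had 15 and 5 in cKO and 9 and 15 in control. Atf3, a stress-induced factor that also answers to many other signals, had 0 counts in both cKO libraries and 8 in each control library. Taken at 3 counts a library, the cKO mean of Atf3 would be 1.52-fold below the control mean. This ratio was 1.05-fold without cKO replicate 1 and 2.80-fold without cKO replicate 2. These ratios take the control mean as exact although it rests on 8 counts a library, so they are not lower bounds. Atf3 did not pass the test when fitted without a count filter (edgeR unadjusted p 0.00426, adjusted p 0.378). In this list 13 of 34 genes had at most 10 counts over the 4 libraries together. Other genes of the list under the count filter, also named after their counts were seen, went in both directions. Over all genes of the list under the filter, more lay lower than higher in both cKO libraries by CPM, many on few counts. Chac1 (8 and 2 counts in cKO against 7 and 22) and Sesn2 (7 and 3 against 8 and 16) were lower in both cKO libraries by CPM. Phgdh (19 and 4 counts in cKO against 8 and 9) and Asns (7 and 3 against 1 and 0) were higher in both.

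ER-associated degradation, which exports misfolded proteins to the proteasome, had 12 of 14 tested genes with a positive estimate, a median log2 fold change of 0.35 and 0 calls. For reference, 49.5% of all tested genes had a positive estimate. This median was -0.26 without cKO replicate 1. Nploc4 and Ufd1, the partners of the VCP segregase, had log2 fold changes of 1.16 and 1.09 (edgeR adjusted p 0.873 and 0.805), and the lectin Os9 had 0.69 (adjusted p 0.888). Each of these 3 genes had 5 to 27 counts in a cKO library and 2 to 33 in a control library, with both cKO values above both control values. Over the list this held for 4 of the 14 tested genes, and in 1 (Derl1, named after its values were seen, log2 fold change -0.49, edgeR adjusted p 0.949) both cKO values lay below, beside 18.6% and 20.1% of all tested genes. Nploc4 had only 2 counts in control replicate 1. Nploc4 and Ufd1 passed the count filter only through their cKO libraries, and the 14 genes of the list under the filter are left out of these numbers.

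Translocation into the ER and N-glycosylation had 29 of the 38 genes in the table tested, 17 with a positive and 12 with a negative estimate, and a median log2 fold change of 0.12. Sec11a, a catalytic subunit of the signal peptidase, had a log2 fold change of 1.26 (edgeR adjusted p 0.661). Stt3b, a catalytic subunit of the oligosaccharyltransferase, had 1.06 (adjusted p 0.754), and Sec63, a translocon partner of HSPA5, had 0.94 (adjusted p 0.768). Cytosolic and mitochondrial chaperones, which lie outside the ER, had 25 of 30 genes tested, 12 positive and 13 negative, and a median log2 fold change of -0.05. Chordc1, a cochaperone of HSP90, had counts of 8 and 1 in cKO against 17 and 24 in control (log2 fold change -1.72, edgeR adjusted p 0.554). The small heat shock proteins Hspb1 and Hspb8 had log2 fold changes of -1.11 and -1.01 (edgeR adjusted p 0.654 and 0.673). Both rest on control replicate 2, which held 185 and 283 counts of them, and became 0.13 and 0.10 without it.

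**Figure D4:**
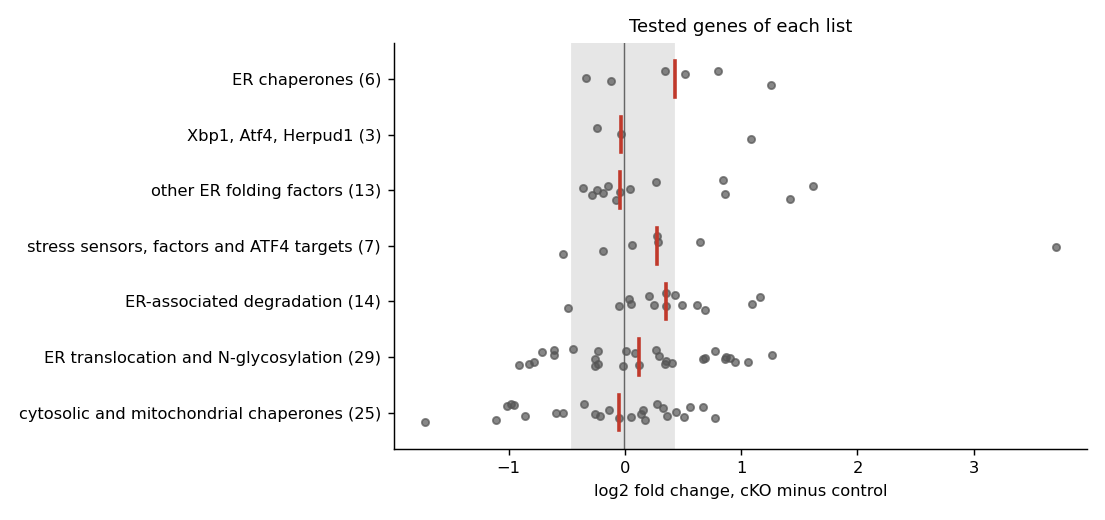
Log2 fold changes (cKO minus control) of every tested gene in each list, with the number tested in brackets, the median in red, the median of all tested genes as a grey line and their quartile range as a grey band; vertical scatter within a list carries no information. The list medians lie between -0.05 and 0.43, and Atf5 is the single point at 3.71.

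Leaving out single libraries moved several estimates. Over the 13 alternative analyses, Calr kept a positive log2 fold change in 13, and Hspa5, Hsp90b1 and Pdia3 did so too. Pdia6 kept a negative one in 13. Canx and Atf4 kept their sign in 12 of 13, Xbp1 in 10 of the 12 in which it was tested, and Herpud1 in 11 of 11. Pdia4 was tested in 3 further fits and was positive in each. None of the 10 genes was called under any of these alternatives. The narrowest range was that of Calr, from 1.04 to 1.40, and the plot of estimates by alternative shows it beside the wide range of Herpud1.

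**Figure D5:**
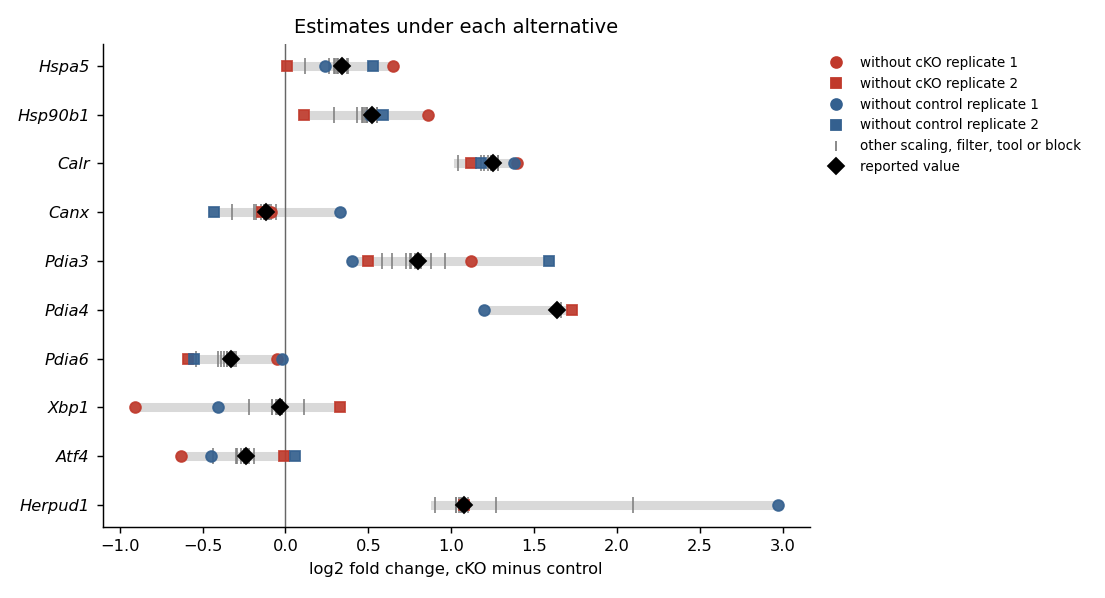
Log2 fold change (cKO minus control) of each gene as reported (black diamond, for Pdia4 from the fit without a count filter), with each library left out in turn (coloured points) and under other scalings, filters, tools or the replicate block (grey ticks). Calr stays between 1.04 and 1.40, Herpud1 spans 0.90 to 2.97, and Canx, Xbp1 and Atf4 reach both sides of 0.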

How the data were processed

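The deposited values are raw counts, in a single table with 1 column for each of 4 libraries; 0 per-sample columns were left unused. Per the submitters' processing notes, Trim Galore 0.6.7, Trimmomatic 0.39, cutadapt 3.7, STAR 2.7.10a, featureCounts 2.0.1 and GRCm39 were used, with no role or order given. Strand use, molecular identifiers and reads with several alignments are not given in the sources used here. Gene positions are those of the table; promoters are RefSeq sequences of GRCm38.p6, matched by symbol, and the builds were not combined.

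Groups and replicate numbers come from the titles. Genes passing filterByExpr (minimum count 10, minimum total 15; 4243 genes, 87.6% of counts) were fitted with edgeR 4.0.16 (R 4.3.3), TMM, glmQLFit and glmQLFTest, on genotype alone, and adjusted by Benjamini-Hochberg (threshold 0.05). CPM values use total counts times the TMM factor. Standard errors are the absolute log2 fold change over the square root of F; 95% intervals use the fit's t quantile and are unadjusted. Alternatives used DESeq2 1.42.0, limma 3.58.1 (voom), other scalings and filters, a replicate block and each library left out; crossed replicate numbers were added after seeing the data. Near copies (at least 95% identity over 150 bases) were sought with blastn 2.17.0 among GENCODE M21 transcripts. Of the 10 genes only Hsp90b1 matched another gene, named 1810014B01Rik in GENCODE M21, whose identifier had 0 counts in every library. The antisense gene of that name in the deposited counts had 1 count in control replicate 1, so it is a different entry.

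The members and lists were chosen with earlier results of these data known. All 10 members, Stim1 and Stim2 are named; in each list, so are the 3 tested genes with a mean of 10 CPM or more that differ most in absolute log2 fold change. Genes outside this rule are said to be named after their counts were seen. Wilson intervals and the limits for a count of 0 cover counting error only; edgeR's standard errors and intervals also carry the spread between libraries.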

Additional observations from a re-analysis of the deposited data

How the results depend on the processing

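The number of genes called over the whole table, 28 higher and 8 lower, became 49 and 26 without a count filter, 13 and 0 with the replicate block, 12 and 3 under limma-voom, and 14 lower among genes with a mean of 10 CPM or more; leaving out 1 library gave 34 to 59 higher and 8 to 34 lower. Deviations of same-numbered libraries were only weakly and negatively correlated over the tested genes (correlation -0.165). A block with crossed numbers, chosen after seeing the data, gave 91 genes higher and 58 lower. The replicate numbers pair no samples by the labels. Neither block called any of the 10 members.

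The chaperone median of 0.43 was 0.20 with library totals and 0.11 to 0.75 without 1 library. The median of the stress-induced factors, -0.03, was -0.22 with library totals, 0.11 with limma-voom and -0.77 to 0.33 without 1 library. For other ER folding factors (-0.04) it was -0.25 with library totals, -0.09 with library totals without the 20 most abundant genes, 0.06 without a count filter, 0.29 with limma-voom and 0.01 to 0.09 without 1 library. For stress sensors, factors and ATF4 targets (0.27) it was -0.22 without a count filter, -0.19 among genes with a mean of 10 CPM or more and -0.13 to 0.45 without 1 library. For ER-associated degradation (0.35) it was -0.26 to 0.37 without 1 library. For translocation and N-glycosylation (0.12) it was -0.10 with library totals, 0.29 with the replicate block and -0.22 to 0.43 without 1 library. For cytosolic and mitochondrial chaperones (-0.05) it was -0.26 with library totals and -0.34 to 0.10 without 1 library.

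Xbp1 changed sign with limma-voom (0.11) and spanned -0.91 to 0.33 without 1 library; Canx spanned -0.43 to 0.33 and Atf4 -0.63 to 0.06. Cebpb spanned -1.13 to 1.49, Eif2ak1 -6.14 to 0.13, Hspb1 -1.72 to 0.13 and Hspb8 -1.59 to 0.10. The share of the stress-induced factors was 5.37% and 2.86% in cKO and 3.95% and 3.65% in control without Atf4, and 16.9% in control replicate 2 without Hspa5. Except where a library was left out or the filter changed the genes tested, the cause was not tested. Pdia4, Xbp1 and Herpud1 fell under the count filter in some alternatives and have no value there. Depth limits most in cKO replicate 2, where 1 count is 9.63 CPM.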
